A study of Arabidopsis thaliana with 18 samples.

Results

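The 148 probe sets described here had the strongest sustained fall in expression in Arabidopsis leaves under low temperature (LT) treatment. They were chosen by their measured values: the mean of the 6 arrays at 0 h was set against the means of the 6 arrays at 48 h and at 120 h, all 22746 probe sets other than array controls were ranked by the smaller of both falls on the log2 scale, and the top 150 were taken. At1g51400 (rank 105, smaller fall 2.06) and EXPA8 (rank 67, smaller fall 2.42) were then left out, as the selection rule stated. It also left out PSBW, PSAE-1, PSB27 and LHCB4.2, whose ranks of 2101, 1912, 1606 and 267 were outside the top 150 in any case. Of the 148 members, 62 were given a single gene by the platform annotation used here, 2 were given several genes, and 84 were not listed and are not named. The samples were the tocopherol-deficient mutant vte2 and the wild type Col, each at 0, 48 and 120 h of LT treatment, with 3 ATH1 arrays in each of the 6 groups. The vte2 plants lack tocopherols (vitamin E) because the first committed enzyme of their synthesis is lost. Plants were 4 weeks old, had grown at 22°C by day and 18°C by night, and were moved to 7°C in the same 12 h days of 120 µmol photons per m2 per s. Every array held RNA pooled from leaves 9 to 11 of 3 plants, taken 1 h into the light period in all groups. The study describes its replicates as biologically independent.

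Leaves moved to the cold slow their growth while transcripts of cold-regulated protective genes build up, and transcripts that served growth and metabolism at warm temperature decline. Some leaf transcripts also follow the supply of sugar: the kinase SnRK1 is active when sugar or light is short, and genes that mark dark or starved leaves are high under those conditions and are repressed by sugar. Enzymes that act on lipids, on cutin and on cell walls, of the GDSL-type lipase, expansin and glycan synthase kinds, take part in expanding leaves. These are general points about leaves, and members are grouped by them only where their annotation is known.

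Features of the arrays that bear on all values below came first. Both replicate 3 arrays at 0 h stood apart from replicates 1 and 2, and each result that rests on 0 h is given with that in view. The genotype labels were not checked here at any time point, because the annotation used gives no probe set for the mutated gene. Of the 77 probe sets that differed between genotypes at 48 h, 71 had the opposite sign at 120 h. The paper describes several groups of its genes that differed at 48 h as changed more persistently in vte2, which these signs do not follow. Whether labels were exchanged at 120 h was not tested. Arrays of that time point are called by their labels, and directions between genotypes there are given as labelled. The ranking averaged both genotypes, so an exchange of labels would alter no member. The tissue was looked at through named marker genes, as log2 levels per probe set that are not comparable between probe sets. The 2 named markers of leaf mesophyll of 10 listed, RCA and PRK, averaged 11.92 to 13.24 on each array. Both were called lower in LT at 48 h (median log2 change -0.75) and neither was called at 120 h (median -0.06). Of root markers 3 were named (3.46 to 3.80 on each array), of flower markers 1 (2.97 to 3.5) and of phloem companion cell markers 1 (3.11 to 4.07). The named guard cell markers (2 of 8) averaged 6.79 to 7.71 and were lower in LT at both times (median log2 change -0.71 at 48 h and -0.42 at 120 h). The part of these cell types in the members' changes was not tested. In RNA of whole leaves, fewer cells of a type and less RNA per cell cannot be told apart.

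Members were bright before LT treatment and close to the middle of the array afterwards. Their median log2 level was 7.70 at 0 h (5.27 to 12.36), 4.88 at 48 h and 5.01 at 120 h, while the median of all probe sets was 5.12, 5.14 and 5.12. No member was under the median of all probe sets at 0 h. At 48 h 81 members were under it, at 120 h 78, and 72 were under it at both times. The smaller of both falls had a median of 2.33 (quartiles 1.99 and 2.81), a 5.04-fold difference, and ranged from 1.83 (3.56-fold) to 5.32 (39.8-fold). It was over 2 in 109 members and over 3 in 25. All 148 members were lower than at 0 h in both genotypes at both times, and the difference was over 1 (2-fold) in both genotypes in 147 at 48 h and in all 148 at 120 h. These values chose the members and are given as a description. In the limma fit to all probe sets, 145 members at 48 h and 146 at 120 h were called lower in LT and 0 at either time were called higher, beside 24.6% lower and 20.8% higher at 48 h and 17.5% lower and 20.1% higher at 120 h among all probe sets. Nothing is read from these counts, because the ranking used the same contrasts.

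**Figure D1:**
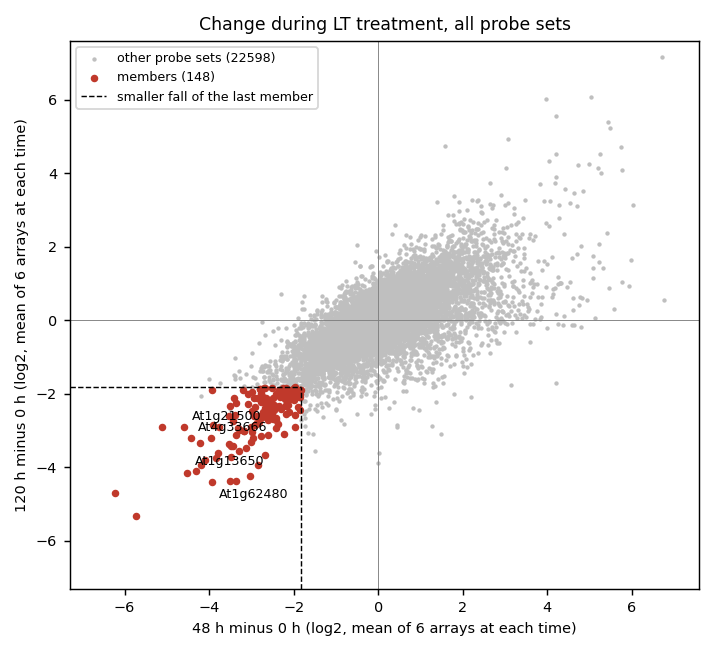
Change of each probe set during LT treatment, 48 h minus 0 h on the x axis and 120 h minus 0 h on the y axis, both as log2 differences between means of 6 arrays. Members (red) lie below and left of the dashed lines at the smaller fall of the last member, 1.83, and the other non-control probe sets are grey.

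The limit of the ranking cut through a continuous range. The last members were At5g44020 (smaller fall 1.85), an acid phosphatase of the HAD family, P1R1 (1.84), GPDHC1 (1.83), the cytosolic glycerol-3-phosphate dehydrogenase, and 2 unlisted probe sets at 1.83. Just outside were an unlisted probe set at 1.83, SWEET17 (1.83, rank 152), a vacuolar fructose transporter, a second unlisted one at 1.82, At1g66100 (1.82) and At4g09760 (1.82).

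On single arrays, the members' median split the 0 h arrays from all others. It was 8.81, 8.18 and 6.73 in vte2 replicates 1, 2 and 3 at 0 h and 8.30, 8.34 and 6.92 in Col. At 48 h it was 4.79, 4.80 and 4.90 in vte2 and 5.0, 4.83 and 4.98 in Col. At 120 h it was 5.35, 5.26 and 5.48 in arrays labelled vte2 and 4.66, 4.71 and 4.69 in those labelled Col. The lowest 0 h array was thus replicate 3 in each genotype, and at 120 h the arrays of both labels did not overlap. The spread between replicates was wide only before LT treatment: the median SD of a member was 1.07 in vte2 and 0.747 in Col at 0 h, against 0.131 to 0.189 in the 4 LT groups. Over all probe sets it was 0.235 and 0.211 at 0 h and 0.107 to 0.128 in LT.

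**Figure D2:**
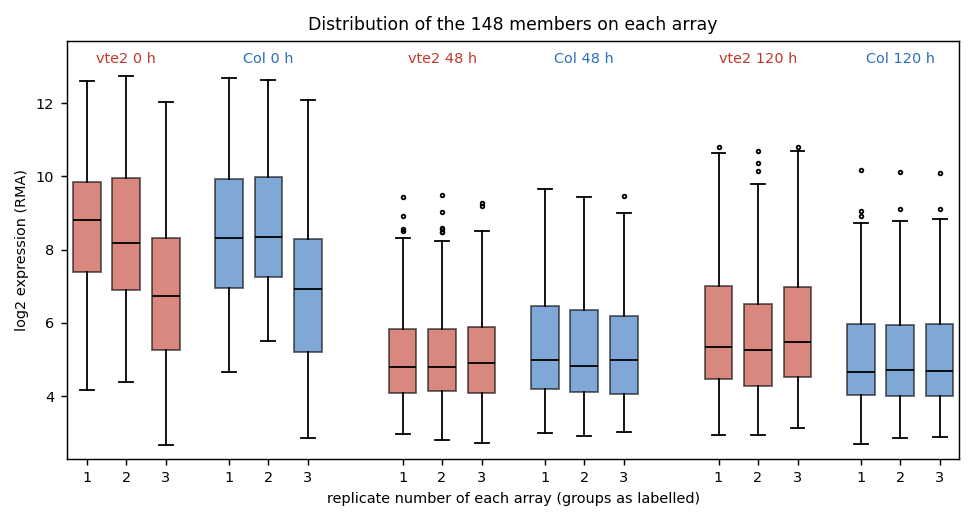
Log2 expression of the 148 members on each of the 18 arrays, in boxes of median and quartiles with whiskers to 1.5 interquartile ranges and circles for values beyond. Replicate 3 at 0 h has a median of 6.73 in vte2 and 6.92 in Col, below the other 0 h arrays, and the highest median of an LT array is 5.48.

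The highest ranks went to an unlisted probe set with falls of 5.72 at 48 h and 5.32 at 120 h, and to another with falls of 6.22 and 4.71. Rank 3 was the first with a gene name, At1g13650. It had 10.15, 8.05 and 6.69 in vte2 and 9.43, 9.61 and 6.16 in Col at 0 h. The 48 h values were 3.86, 3.65 and 4.08 in vte2 and 3.87, 3.73 and 3.79 in Col, and at 120 h 4.49, 4.38 and 4.45 in arrays labelled vte2 and 4.08, 4.07 and 3.76 in those labelled Col. All 6 arrays at 0 h were above all 12 in LT, and the falls were 4.52 and 4.15.

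At1g62480, a vacuolar calcium-binding protein-related gene of rank 6, had falls of 3.93 and 4.40. Before LT treatment its SD was 0.652 in vte2 and 0.735 in Col (n = 3 each). Its levels were 9.62, 10.39 and 9.10 in vte2 and 10.74, 10.53 and 9.38 in Col at 0 h. At 48 h they were 5.84, 5.98 and 5.93 in vte2 and 6.40, 5.81 and 6.21 in Col. Arrays at 0 h did not overlap with those in LT. A chromosomal neighbour with 2 coding genes between them in the RefSeq annotation, At1g62510, was also a member (rank 9, falls 3.80 and 3.61). It encodes a protein of the protease inhibitor, seed storage and lipid transfer family. At 0 h it had 9.43, 9.92 and 5.25 in vte2 and 8.87, 9.02 and 5.44 in Col, against 3.94 to 4.61 in LT.

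Rank 11, At4g21870, encodes a small HSP20-like chaperone. It had 9.10, 10.94 and 7.22 in vte2 and 10.36, 10.30 and 7.80 in Col at 0 h, and 5.20, 5.24 and 5.66 in vte2 and 6.45, 5.97 and 6.33 in Col at 48 h. Every 0 h array was above every LT array. The other named genes among the 20 of highest rank covered several kinds of enzyme. At1g25230, a purple acid phosphatase, had falls of 3.96 and 3.19, At2g32150, a HAD-type hydrolase, 2.68 and 3.66, and At4g38690, a phospholipase C-like phosphodiesterase, 3.38 and 2.58. For At3g06070, At1g22890, At1g11850, At3g15630, At4g37240 and At1g52720 no role is given here, and their smaller falls were 3.37, 3.36, 2.85, 2.80, 2.77 and 2.56.

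**Figure D3:**
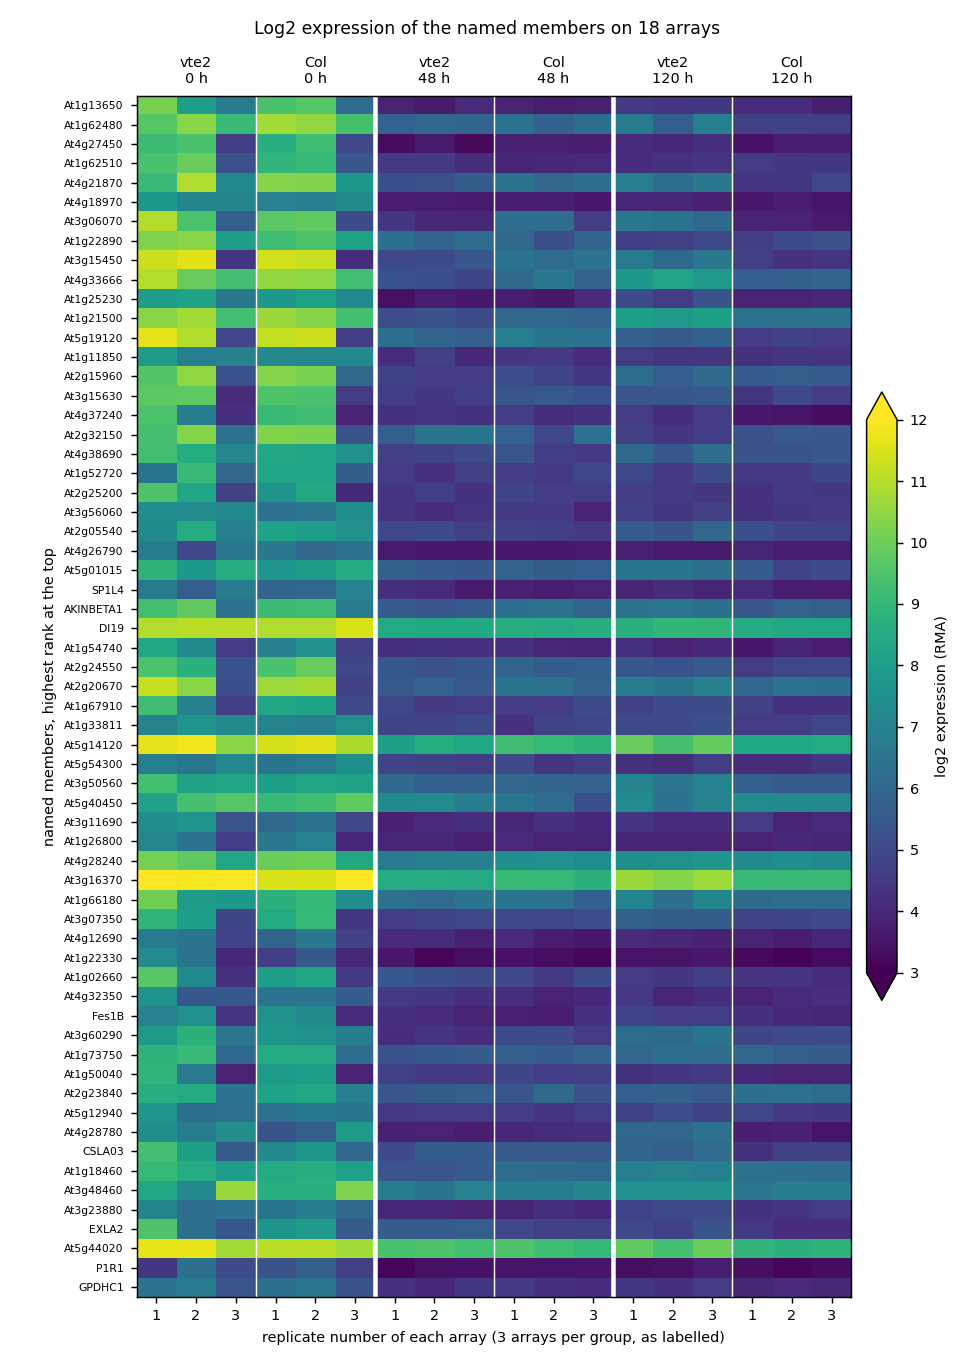
Log2 expression of the 62 members with a single gene name (rows, highest rank at the top) on the 18 arrays (columns, 3 per group as labelled). Rows are brighter at 0 h than in LT, and many rows are dark in replicate 3 at 0 h in both genotypes, for example At3g15450 at 4.43 in vte2 and 4.18 in Col.

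GDSL-type lipases, a family of esterases and lipases that includes enzymes of cutin and cell wall lipids, accounted for 6 of the 62 named members. They were put together after their values were seen, and no test was made of the group. The share of the family among all named probe sets was not counted, so 6 cannot be called many or few. At4g18970 (rank 12) had 7.80, 7.12 and 7.09 in vte2 and 6.99, 6.84 and 7.30 in Col at 0 h. At 48 h it had 3.69, 3.74 and 3.66 in vte2 and 3.75, 3.75 and 3.59 in Col, and at 120 h 3.99, 3.98 and 3.82 in arrays labelled vte2 and 3.57, 3.72 and 3.53 in those labelled Col. The groups at 0 h and in LT were far apart, with no overlap, and the falls were 3.49 and 3.42. At3g16370, which was among the brightest members, had 12.23, 11.86 and 11.99 in vte2 and 11.47, 11.50 and 11.98 in Col at 0 h. It had 8.56, 8.56 and 8.49 in vte2 and 9.08, 9.02 and 8.78 in Col at 48 h. The gene stayed bright in the cold, well above the median of all probe sets, and its smaller fall was 2.01. At4g26790, At1g33811, At4g28780 and At3g48460 had smaller falls of 2.46, 2.32, 1.87 and 1.85.

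For other members with known roles, the smaller of both falls lay on either side of the members' median of 2.33. The drought-induced zinc finger gene DI19, chosen after its values were seen, had 10.96, 11.05 and 11.02 in vte2 and 10.91, 10.92 and 11.46 in Col at 0 h. At 48 h it had 8.51, 8.47 and 8.46 in vte2 and 8.62, 8.54 and 8.69 in Col. These replicates were tight, the groups did not overlap, and the falls were 2.5 and 2.41. SP1L4, a SPIRAL1-like gene of the family that organizes cortical microtubules, had falls of 2.46 and 2.43. At5g14120, a nodulin-like transporter of the major facilitator kind, had falls of 2.59 and 2.22. CSLA03, a cellulose synthase-like enzyme of the mannan synthase family, and Fes1B, a nucleotide exchange factor of HSP70, both chosen after their values were seen, had smaller falls of 1.86 and 1.95.

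The members differed most in the shift of replicate 3 at 0 h. Relative to the mean of replicates 1 and 2, replicate 3 was lower by a median of 1.22 in vte2 (log2 shift -1.22) and 1.06 in Col (log2 shift -1.06), while the median over all probe sets was -0.01 and 0.02. It was lower by over 2 (4-fold) in both genotypes for 48 of the 148 members (32.4%), beside 1.13% of all probe sets. It was lower by over 1 in both for 71 members (48.0%, against 3.38% of all probe sets) and higher by over 1 in both for 7 (4.73%, against 3.61%). The shift was under 1 in size in both genotypes for 44 members. The ranking used these 0 h arrays in its means, so the shares are a description with no test.

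At3g15450 and At4g27450, 2 genes of the aluminium-induced protein family with YGL and LRDR motifs, showed the shift clearly. At3g15450 had 11.29, 11.61 and 4.43 in vte2 and 11.40, 11.25 and 4.18 in Col at 0 h. In the 48 h arrays it had 4.94, 5.02 and 5.46 in vte2 and 6.42, 6.15 and 6.43 in Col, and at 120 h 6.72, 6.04 and 6.61 in arrays labelled vte2 and 4.71, 4.3 and 4.38 in those labelled Col. Both replicate 3 arrays at 0 h were within or below the range of the LT arrays, and the other 4 were far above it. At4g27450 had 9.15, 9.42 and 4.67 in vte2 and 8.66, 9.20 and 4.97 in Col at 0 h, and 3.29, 3.63 and 3.21 in vte2 and 3.84, 3.80 and 3.71 in Col at 48 h. Here replicate 3 was low as well but remained above all LT arrays, of which the highest was 4.24.

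The aspartyl protease gene At5g19120 had 11.63, 10.98 and 4.93 in vte2 and 11.16, 11.32 and 4.66 in Col at 0 h. At 48 h it had 6.26, 5.85 and 5.70 in vte2 and 6.84, 6.50 and 6.39 in Col. Its replicate 3 arrays at 0 h were thus below all 6 arrays at 48 h. The largest downward shifts among named members also included At2g20670, a gene of the DUF506 family (-5.60 in vte2 and -5.96 in Col), At3g15630 (-5.60 and -4.86) and At4g37240 (-3.89 and -5.32). In the other direction, At3g48460 was higher in replicate 3, with 8.41, 7.19 and 10.64 in vte2 and 8.73, 8.74 and 10.28 in Col at 0 h. At4g28780 (0.33 in vte2 and 2.36 in Col), SP1L4 (0.55 and 1.02), At5g40450 (0.84 and 0.66), a gene known for vacuole structure, and At5g54300 (0.51 and 0.85) followed.

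**Figure D4:**
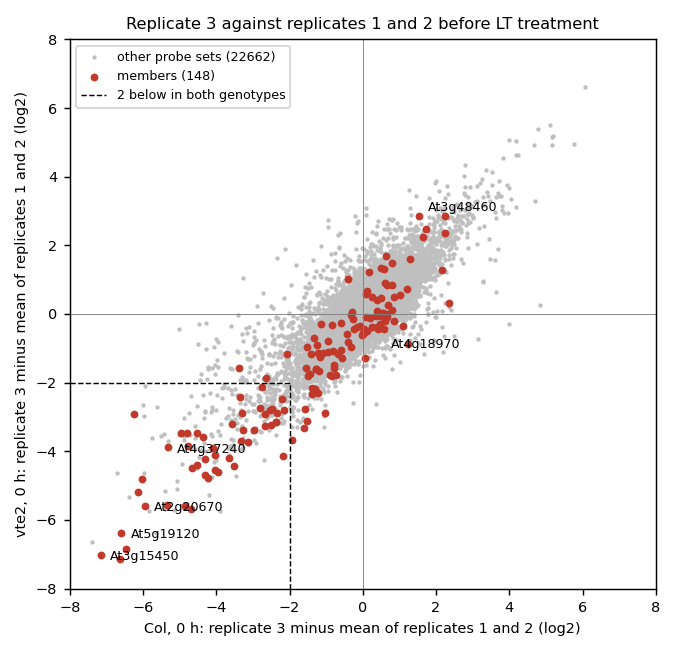
Difference of replicate 3 from the mean of replicates 1 and 2 at 0 h in Col (x axis) and vte2 (y axis), as log2 values, for the 148 members (red) and all other probe sets including controls (grey). The dashed lines enclose the 48 members that were lower by over 2 in both genotypes.

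The size of the fall varied with the 0 h arrays it was taken from. From replicates 1 and 2, the smaller fall had a median of 2.74 and was over 1 in all 148 members. From replicate 3 it had a median of 1.57, was over 1 in 92 members and was 0 or below in 26. For the 48 members with the downward shift over 2, the medians were -0.11 from replicate 3 and 3.85 from replicates 1 and 2, and for the other 100 they were 2.18 and 2.39. All 4 arrays of replicates 1 and 2 at 0 h were above all 12 LT arrays in 144 members, beside 8.71% of all probe sets, and all 6 arrays at 0 h were above them in 102, beside 5.09%. In 35 members neither replicate 3 array at 0 h was higher than the highest LT array, beside 68.7% of all probe sets. These arrays chose the members, and nothing is read from the counts. A ranking without both replicate 3 arrays at 0 h kept 106 of the top 150. What set replicate 3 apart was not tested.

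Of 21 genes in a list that marks low sugar or darkness, 3 were named, and 2 of these were members. These are At3g15450, described above, and AKINBETA1, which encodes a beta subunit of the SnRK1 kinase. AKINBETA1 had 9.28, 9.82 and 6.39 in vte2 and 9.18, 9.21 and 6.81 in Col at 0 h, and 5.63, 5.41 and 5.61 in vte2 and 6.27, 6.42 and 5.86 in Col at 48 h. Its replicate 3 arrays were the lowest at 0 h, and that of vte2, 6.39, lay within the range of the LT arrays. All 3 named genes of the list were called lower in LT at both times, with a median log2 change of -2.69 at 48 h and -2.41 at 120 h, and a median replicate 3 shift of -2.77. The ranking chose the 2 members by these same falls, so nothing is read from their calls or from the medians. The third, MCCA, a subunit of a carboxylase of leucine breakdown, was no member (rank 204). Its log2 changes were -2.69 ± 0.37 (SE, limma adjusted p = 1.95e-05) at 48 h and -1.68 ± 0.37 (SE, limma adjusted p = 0.0019) at 120 h. MCCA was also lower in replicate 3 at 0 h (log2 shift -2.13 in vte2 and -1.67 in Col), so its changes carry the same limit. Whether sugar or light had a part in these values was not tested.

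Few genes of the other lists were named, and the 84 unlisted members could not be looked up in any list. These counts and those of the marker genes above stand beside the shares of all probe sets. Those were 24.6% lower and 20.8% higher at 48 h, and 17.5% lower and 20.1% higher at 120 h. Of 40 photosystem and light-harvesting subunits, 8 were named and none of these 8 was a member, although all 8 were called lower in LT at 48 h and at 120 h (median log2 change -1.37 and -0.60). Among 5 named genes of chlorophyll synthesis, 3 were called lower and 1 higher at 48 h, and 2 were lower and 2 higher at 120 h. All 3 named Calvin cycle genes were lower at 48 h and 1 at 120 h, and all 3 named photorespiration genes were lower at both times. Of 16 named expansins and xyloglucan enzymes, 5 were lower and 3 higher at 48 h, and 6 were lower and 1 higher at 120 h. EXLA2, an expansin-like gene, was the only named member among them once EXPA8 was left out by the rule, with 9.51, 6.33 and 5.45 in vte2 and 7.65, 7.97 and 5.60 in Col at 0 h, and 5.67, 5.61 and 5.74 in vte2 and 4.91, 4.74 and 4.77 in Col at 48 h. Its 0 h arrays overlapped with those in LT in vte2. No named member was in the lists of clock, auxin, glucosinolate, nitrate and sulfate, heat shock or wax genes. The single named clock gene and the single named wax gene were called lower at both times, as was 1 of 3 named auxin genes. None of 4 named glucosinolate genes was called lower at 48 h and 3 were at 120 h, and 1 was called higher at 48 h. Neither of 2 named nitrate and sulfate genes was called lower at 48 h and both were at 120 h. Of 4 named heat shock genes, 2 were called lower at each time and 1 higher at 48 h. No aquaporin was named.

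Between 48 and 120 h, most members stayed low. The 120 h mean was within 0.5 of the 48 h mean in 105 of 148 members, and it was the higher of both in 100. The median difference, 120 h minus 48 h, was 0.15 in members and 0.04 in all probe sets. A difference over 1 upward was found in 12 members (8.11%), beside 2.32% of all probe sets, and over 1 downward in 3 (2.03%, beside 5.14%). These means also entered the ranking, and the shares carry no test.

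Among named members the largest return was in At1g21500 (1.67). It had 10.39, 10.74 and 9.32 in vte2 and 10.65, 10.36 and 9.33 in Col at 0 h, and 5.12, 5.25 and 5.07 in vte2 and 5.98, 5.99 and 5.87 in Col at 48 h. At 120 h it had 8.09, 7.86 and 8.11 in arrays labelled vte2 and 6.38, 6.38 and 6.46 in those labelled Col. All 120 h arrays were thus above all 48 h arrays and below all 0 h arrays. The next largest returns were in At4g33666 (1.22), At2g15960 (1.08), At3g16370 (1.08) and At3g60290 (1.06), an oxygenase of the 2OG-Fe(II) kind. The 120 h level went on below the 48 h level in At5g19120 (-1.10), At1g22890 (-1.01), At2g32150 (-0.98), At1g02660 (-0.61), a plastid lipase, and EXLA2 (-0.59).

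The ranking had averaged both genotypes and did not use their difference, which was tested with limma across all 22810 probe sets. At 0 h the members' spread was wider in vte2 than in Col (median SD 1.07 and 0.747). A choice by the 0 h mean may therefore favour members that are high in vte2 at 0 h. The 0 h comparison and the interactions, which subtract 0 h, are thus not fully independent of the ranking. At 0 h no member was called in either direction, beside 0.00438% of all probe sets higher in vte2 and 0.00438% lower. At an unadjusted p under 0.05 there were 6 members higher and 4 lower (4.05% and 2.7%, beside 4.12% and 4.41% of all probe sets), and the median difference (vte2 minus Col) was 0.10. This count of 0 changed when replicate 3 arrays were left out. Without both of them 16 members were called higher and 5 lower, beside 1.99% and 2.58% of all probe sets. Without replicate 3 of vte2 alone 12 members were called, beside 2.59% of all probe sets, and without that of Col alone 7, beside 1.53%. In these fits the shared estimate of the spread rests more on the LT arrays, whose spread is smaller. It may be too small for differences at 0 h, and what the added calls reflect was not tested. At 48 h no member was called higher (0.215% of all probe sets) and 2 were called lower (0.123%). At an unadjusted p under 0.05 there were 1 higher and 14 lower members (0.676% and 9.46%, beside 2.79% and 2.89% of all probe sets). The median difference was -0.12. In vte2 98 of 148 members were lower and 33.8% were higher, beside 50.2% higher among all probe sets. The 2 called members, singled out after their values were seen, are not listed in the annotation. The first had 6.90, 7.20 and 6.88 in vte2 and 8.15, 8.01 and 7.86 in Col at 48 h (log2 difference -1.01 ± 0.12, SE, limma adjusted p = 0.00119). The second had 6.79, 6.74 and 6.79 in vte2 and 7.90, 7.49 and 7.43 in Col (-0.83 ± 0.15, SE, limma adjusted p = 0.028). In neither did the genotypes overlap at 48 h, from which nothing is read, because the calls used these arrays. The number of members called lower at 48 h changed with the fit. It was 10 with 1 higher on the arrays of 48 h alone (beside 0.403% lower and 0.254% higher of all probe sets), 12 with a replicate block (0.351% lower), 19 with array weights (2.3%) and 17 without both replicate 3 arrays at 0 h (0.833%), an alternative added after seeing the data.

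At 120 h, 29 members (19.6%) were called higher in arrays labelled vte2, beside 3.44% of all probe sets, and 0 were called lower, beside 3.09%. At an unadjusted p under 0.05 there were 47 higher and 1 lower members (31.8% and 0.676%, beside 8.65% and 8.58% of all probe sets). The median difference was 0.52 over the members and 0.01 over all probe sets, and 123 of 148 members were higher in arrays labelled vte2 (83.1%, beside 53.1% of all probe sets). Of the 29 called members, 26 had a difference below 0 at 48 h. A difference below 0 at 48 h and above 0 at 120 h was found in 92 of 148 members (62.2%), beside 31.8% of all probe sets. Only 9 of the 29 have a gene name. If the labels at 120 h were exchanged, every sign of this comparison would turn and the counts would stay.

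**Figure D5:**
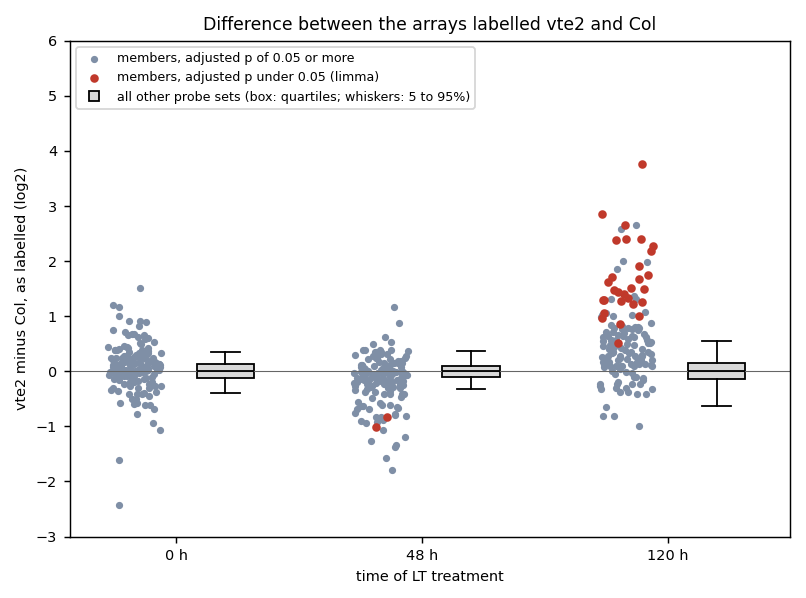
Difference between arrays labelled vte2 and Col at each time (log2, vte2 minus Col) for the 148 members (points, red where limma called them at an adjusted p under 0.05) beside all other probe sets (boxes of quartiles with whiskers from the 5th to the 95th percentile). The members lie around 0.10 at 0 h, -0.12 at 48 h and 0.52 at 120 h in the median, and 0, 2 and 29 are called.

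Among the named genes, the difference at 120 h was largest in the GDSL-type lipase At4g28780. It had 5.98, 5.98 and 6.37 in arrays labelled vte2 and 3.76, 3.82 and 3.52 in those labelled Col (log2 difference 2.41 ± 0.45, SE, limma adjusted p = 0.00415). After 48 h it had 3.84, 3.91 and 3.69 in vte2 and 4.02, 4.19 and 4.23 in Col. The labels did not overlap at 120 h, and the arrays labelled Col lay between 3.52 and 3.82, against 3.69 to 4.23 at 48 h. At4g33666 had 7.79, 8.26 and 7.83 in arrays labelled vte2 and 5.67, 5.75 and 5.92 in those labelled Col at 120 h (2.18 ± 0.38, SE, limma adjusted p = 0.00241). At 48 h it had 5.27, 5.19 and 4.89 in vte2 and 6.07, 6.62 and 5.87 in Col, so that the labels were apart at both times, in opposite directions.

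At1g62480 had 6.68, 5.71 and 6.87 in arrays labelled vte2 and 4.70, 4.71 and 4.70 in those labelled Col at 120 h (1.72 ± 0.37, SE, limma adjusted p = 0.0106). The call was lost without replicate 1 or without replicate 3 of the arrays labelled vte2 (limma adjusted p up to 0.0663). At1g21500, given above, differed by 1.61 ± 0.32 (SE, limma adjusted p = 0.0062). At3g16370 had 10.64, 10.36 and 10.68 in arrays labelled vte2 and 9.06, 9.10 and 9.12 in those labelled Col (1.47 ± 0.14, SE, limma adjusted p = 2.43e-05), the smallest standard error of these genes. The others called were At5g14120 (1.29), At5g01015 (1.29), At3g50560 (1.25), a Rossmann-fold NAD(P)-binding protein, and At5g44020 (0.86), and the call was lost in At5g14120 when any of 4 single arrays of 120 h was left out (1.2 to 1.28, limma adjusted p up to 0.0677), and in At5g44020 when any of 7 arrays was left out (0.72 to 0.90, limma adjusted p up to 0.185). At3g15450, whose arrays at 120 h did not overlap between labels either, was not called (1.99 ± 1.75, SE, limma adjusted p = 0.696).

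The fit uses 1 estimate of the spread for all 6 groups, 0 h included. None of the 48 members with the large replicate 3 shift was called at 120 h, against 29 of the other 100. Fitted on the 6 arrays of 120 h alone, 89 members were called higher and 7 lower in arrays labelled vte2: 25 higher and 4 lower of the 48, and 64 higher and 3 lower of the other 100. That fit called 11.3% of all probe sets higher and 12.6% lower. With a replicate block 49 members were called higher and 0 lower, beside 5.83% and 5.59% of all probe sets. The median difference at 120 h was 0.36 in the 48 and 0.62 in the others.

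The LT change itself was compared between genotypes with interaction contrasts. The median change from 0 h was -2.73 at 48 h and -2.16 at 120 h in arrays labelled vte2, and -2.48 and -2.65 in those labelled Col. The fall was the larger one in vte2 in 101 of 148 members at 48 h and in 34 at 120 h. The difference of the changes, vte2 minus Col, was above 0 in 31.8% of members at 48 h, beside 49.8% of all probe sets. At 120 h it was above 0 in 77.0%, beside 51.8%. For the change from 0 to 48 h, 0 members were called as different in either direction (limma), beside 0.0482% of all probe sets with a positive and 0.00438% with a negative difference. At an unadjusted p under 0.05 there were 3 positive and 14 negative members (2.03% and 9.46%, beside 3.8% and 3.58% of all probe sets), and the median of the difference was -0.21. With a replicate block 4 members were called with a negative difference (2.70%, beside 0.0395% of all probe sets). Without both replicate 3 arrays at 0 h 23 were called negative and 3 positive (beside 1.55% and 1.79%), with the limit given above for that fit. For the change from 0 to 120 h, 14 members (9.46%) were called with a positive difference, that is, a smaller fall in arrays labelled vte2, beside 1.23% of all probe sets. None was called with a negative one, beside 1.04%. At an unadjusted p under 0.05 there were 34 positive and 1 negative members (23% and 0.676%, beside 7.51% and 6.78% of all probe sets). With a replicate block 30 were positive and 1 negative, beside 3.02% and 2.56% of all probe sets. All 14 were among the 29 called at 120 h. Of these, 3 had a gene name: At1g62480 (2.23 ± 0.52, SE, limma adjusted p = 0.0371), At4g33666 (2.19 ± 0.53, SE, limma adjusted p = 0.0446) and At3g16370 (1.09 ± 0.20, SE, limma adjusted p = 0.00868). With single arrays left out, the call was lost in At1g62480 for 12 of 18 arrays (1.97 to 2.23, limma adjusted p up to 0.113) and in At4g33666 for 14 of 18 (1.97 to 2.28, limma adjusted p up to 0.107), and in At3g16370 for none. The call of At4g33666 was also lost with cyclic loess (limma adjusted p = 0.0518) and with median centring (limma adjusted p = 0.0534). With the labels at 120 h exchanged, which was added after seeing the data, 1 member was called positive and 19 negative, beside 1.21% and 1.32% of all probe sets. The differences then were -1.20 in At1g62480 (limma adjusted p = 0.297), -2.17 in At4g33666 (limma adjusted p = 0.0448) and -1.85 in At3g16370 (limma adjusted p = 0.000331).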

How the data were processed

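RNA of 18 leaf samples was hybridised to Affymetrix ATH1 arrays, 3 per genotype and time. The authors deposited log2 values that RMA in the affy package had background-adjusted, quantile-normalized over all arrays and summarized for 22810 probe sets, 64 of them controls. Versions of these tools and the genome build of the array are not given in the sources used here. The number of arrays limits the precision. Each array was mapped to its group by its labels.

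Members were ranked with Python 3.11.15 (pandas 2.3.3). A linear model of 6 group means (12 residual degrees of freedom) was fitted to all arrays with limma 3.58.1 in R 4.3.3, with empirical Bayes moderation and Benjamini-Hochberg adjustment over all probe sets within each comparison (threshold 0.05). It was tested on simulated data with changes planted at 48 h and the same spread in all groups. The simulation held neither the wider spread at 0 h nor the replicate 3 shift, so it does not cover their effect on the calls. The genotype differences and their interactions with LT were tested, and the LT changes that the ranking used, the change between 48 and 120 h and the replicate 3 shift were only described. The platform annotation gave 13513 probe sets a single gene, 503 several, and did not list 8794.

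The members and the gene lists were chosen with earlier results of these data known. Named genes were, among members with a single gene, the 20 of highest rank, the 5 largest called genotype differences or interactions in each direction, the 5 largest and 5 smallest returns at 120 h, the 5 largest replicate 3 shifts each way, the last 3 ranks and members in a list. Deviations of same-numbered vte2 and Col arrays from their group means had correlations of 0.397 to 0.791 at 0 h, 0.054 to 0.302 at 48 h and -0.151 to 0.0096 at 120 h. At 0 h, arrays numbered 1 and 2 of different number correlated at 0.462 and 0.496, and replicate 3 with replicates 1 or 2 at -0.699 to -0.498. These values set replicate 3 apart and do not show that replicates 1 and 2 were paired by number. The replicate block used the numbers within each time point all the same. As alternatives, the fit was restricted to single time points, given a replicate block, array weights or a trended, robust prior, run after cyclic loess or median centring, or run without the dimmest 40% of probe sets; others were different ranking quantities, leaving out each array, leaving out both replicate 3 arrays at 0 h, and exchanged labels at 120 h. Promoter sequences were not analysed here.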

Additional observations from a re-analysis of the deposited data

Results flagged for a closer look

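The change from 0 to 120 h differed between arrays labelled vte2 and Col in 14 of the 148 members by the interaction test (limma). All 14 (9.46% of the members) had a positive difference, beside 1.23% of all probe sets with a positive and 1.04% with a negative one. The named genes among them were At1g62480, with a difference of 2.23, At4g33666, with 2.19, and At3g16370, with 1.09, all on the log2 scale as the change in vte2 minus the change in Col. In all 3, arrays of both labels did not overlap at 120 h. The genes were picked by a test that used these arrays, so nothing is read from this. The direction rests on the labels at that time point, which were not checked here. The call of At1g62480 was lost when any of 12 of the 18 arrays was left out (limma adjusted p up to 0.113) and that of At4g33666 for any of 14 of 18 (up to 0.107), and At4g33666 also lost it with cyclic loess (limma adjusted p = 0.0518) and median centring (limma adjusted p = 0.0534). At3g16370 kept its call in all of these.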

How the results depend on the processing

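Of 157 alternatives for the summary results 128 stayed within 1.5 times the main value or within the replicate spread and 28 moved. In 1, exchanged labels at 120 h, the direction turned: 20 members were called for the change to 120 h, 1 positive and 19 negative, with a median of -0.65 against 0.41. Of 312 for single genes 267 kept their call, 42 lost it and 3 turned sign, those with exchanged labels at 120 h (-1.20 in At1g62480, -2.17 in At4g33666 and -1.85 in At3g16370, chosen after seeing the data). In the tally of summary results, a ranking that kept 106 of 150 probe sets was counted as staying, as were counts of 0 that remained 0. That tally thus depends on the limits set for it. Where replicate 3 arrays at 0 h are left out, the shared estimate of the spread rests more on the LT arrays. It may then be too small for the counts that use 0 h. Without both replicate 3 arrays at 0 h, 21 members were called at 0 h (0 with them), 17 at 48 h (2 with them), 65 at 120 h (29 with them), 26 for the change to 48 h (0 with them) and 39 for the change to 120 h (14 with them), beside 4.57%, 1.49%, 7.2% higher and 6.74% lower, 3.35% and 7.71% of all probe sets; the settings for 48 and 120 h were added after seeing the data. With a replicate block the counts were 12 at 48 h, 49 at 120 h, 4 for the change to 48 h and 31 for the change to 120 h (beside 0.693%, 11.4%, 0.11% and 5.58% of all probe sets), with array weights 19, 72, 2 and 22 (4.21%, 26.5%, 0.513% and 4.18%), and with the arrays of the time point alone 11 at 48 h and 96 at 120 h (0.658% and 23.9%). The block was within 1.5 times the main count at 0 h. With single arrays left out, the counts ranged from 0 to 12 at 0 h (7 without Col 0 h replicate 3, 12 without vte2 0 h replicate 3), 1 to 5 at 48 h (5 without vte2 0 h replicate 3, 4 without Col 48 h replicate 3, and 1 without any vte2 array at 48 h, Col 48 h replicate 1 or 2, or Col 120 h replicate 2), 22 to 42 at 120 h, 0 to 6 for the change to 48 h (6 without either replicate 3 array at 0 h, 1 without Col 48 h replicate 3) and 10 to 18 for the change to 120 h. The ranking kept 126 to 149 of 150 probe sets with single arrays left out, 122 with vte2 alone, 115 with Col alone, 117 with medians, 140 with cyclic loess and 122 with the mean of both falls. The median fall was 2.74 without both replicate 3 arrays at 0 h, 2.39 with cyclic loess and 2.38 with median centring, against 2.33.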
